A study of Mus musculus with 2 samples.

Results

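The genes examined were 10 members of the dual-specificity phosphatase family: Dusp1, Dusp2, Dusp4, Dusp5, Dusp6, Dusp7, Dusp10, Dusp11, Dusp16 and Dusp22. Every open-chromatin peak that the authors had assigned to one of these symbols was taken, which gave 45 of the 34440 peaks in the wild-type (WT) list and 29 of the 19680 peaks in the Tkt knockout (cKO) list. The peaks came from ATAC-seq, in which the Tn5 transposase inserts adapters into accessible DNA, on regulatory T (Treg) cells. The donors were C57BL/6 females 7 weeks old that carried Foxp3cre/+, and the cKO mouse was in addition TKTfl/fl. Spleen and lymph node supplied the cells, which were sorted as CD4+CD25+YFP+. The labels call the mice chimeric and give no treatment. Both groups therefore carried the Cre allele, and Cre was driven from Foxp3, an X-linked gene. Each genotype had 1 library, so the values below compare 2 libraries, no difference has a replicate check and no test between genotypes was possible.

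Dual-specificity phosphatases remove phosphate from both the threonine and the tyrosine of an activated MAP kinase, which switches the kinase off. Many of the classical members are transcribed in response to the kinase they inactivate and so form a negative feedback on T cell receptor signalling. Dusp1, Dusp2, Dusp4 and Dusp5 encode inducible nuclear enzymes, Dusp6 and Dusp7 cytoplasmic enzymes that act on ERK, and Dusp10 and Dusp16 enzymes that act mainly on JNK and p38. Dusp11 and Dusp22 are atypical members. The product of Dusp11 acts on RNA rather than on MAP kinases, and that of Dusp22 acts on JNK signalling and on the T cell kinase Lck.

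All 6 markers examined for Treg cells (Foxp3, Il2ra, Ctla4, Ikzf2, Cd4 and Cd3e) had peaks in both lists, though Cd4 and Cd3e also mark other T cells. Of 4 B cell markers only Cd79a had a peak, in both lists, and of 4 myeloid markers Spi1 had 1 in WT alone and Lyz2 1 in cKO alone, while 2 of 4 CD8 T and NK cell markers had peaks in both. The authors' score of a peak has no stated meaning and may move with sequencing depth, which is unknown here. It is therefore given only as a place within its own list, as the percentage of that list's peaks that scored lower. Peaks are called shared when a peak of the other list overlaps them by at least 1 bp. Coordinates are those of mm10.

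The 250 bases before the RefSeq start site (GRCm38.p6, the assembly behind mm10) could be matched for 9 of the 10 genes, all except Dusp4. A WT peak covered at least part of all 9 windows and a cKO peak covered 8, with Dusp22 as the exception. The 3 sequences below show the contrast: the start site of Dusp1, which lay under a strong peak in both lists, that of Dusp10, which lay under a peak credited to another gene, and that of Dusp22, which lay under a peak in WT alone. Each is written 5′ to 3′ on the strand of its gene. It stops before the start site of RefSeq and of every transcript that the authors' lists give for that gene. Capitals mark the CRE motif TGACGTCA in Dusp1 and the CCAAT motif, or its reverse complement ATTGG, in Dusp10.
Dusp1, chr17:26508520-26508722, minus strand: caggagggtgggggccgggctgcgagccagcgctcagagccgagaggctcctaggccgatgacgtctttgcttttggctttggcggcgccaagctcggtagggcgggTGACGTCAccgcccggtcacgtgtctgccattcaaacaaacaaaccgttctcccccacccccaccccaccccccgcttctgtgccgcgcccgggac
Dusp10, chr1:184034131-184034380, plus strand: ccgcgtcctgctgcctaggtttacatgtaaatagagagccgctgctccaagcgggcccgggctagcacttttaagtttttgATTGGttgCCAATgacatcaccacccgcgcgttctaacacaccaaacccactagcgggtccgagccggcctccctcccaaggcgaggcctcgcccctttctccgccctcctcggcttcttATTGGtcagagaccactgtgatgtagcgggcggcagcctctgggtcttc
Dusp22, chr13:30659809-30659998, plus strand: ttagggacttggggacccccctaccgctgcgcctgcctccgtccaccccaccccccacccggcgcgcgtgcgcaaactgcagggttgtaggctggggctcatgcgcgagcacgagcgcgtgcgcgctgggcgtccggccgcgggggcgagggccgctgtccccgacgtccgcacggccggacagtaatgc

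Motifs were searched on both strands of the 250 bases as TGACGTCA (CRE), TGANTCA (AP-1), CCGGAAG (ETS) and CCAAT (NF-Y). Dusp1 had the only CRE match among the 9 windows, with its first base 143 bases before the start site, against 1.55% of all 32851 RefSeq windows with such a match. Dusp10 had 3 CCAAT matches, and Dusp6, Dusp7 and Dusp16 had 1 each, while 33.8% of all windows held at least 1. No member window held an AP-1 or ETS match of these letters, which occurred in 6.75% and 6.91% of all windows. The 9 windows were rich in G and C, from 54% at Dusp11 to 77.6% at Dusp22, against a median of 52.4% over all windows. They held between 13 and 38 CpG dinucleotides, and the median window held 6.

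All 10 genes had WT peaks and 9 had cKO peaks, and of all 19215 genes with a WT peak 71.8% also had a cKO peak. Of the 45 WT peaks 29 were shared with the cKO list (64.4%, Wilson 95% interval 49.8 to 76.8), and over all WT peaks the share was 56.1%, inside that interval. In the other direction all 29 cKO peaks were shared (Wilson interval 88.3 to 100), against 97.6% of all cKO peaks. By the separate limit of 3 counts that a count of 0 allows, up to 10.3% could be unshared. These intervals and limits cover counting error only, since neighbouring peaks are not independent. No peak at these genes was called in the knockout library alone. In a bulk library, a region open in fewer cells and a region less open in every cell cannot be told apart.

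**Figure D1:**
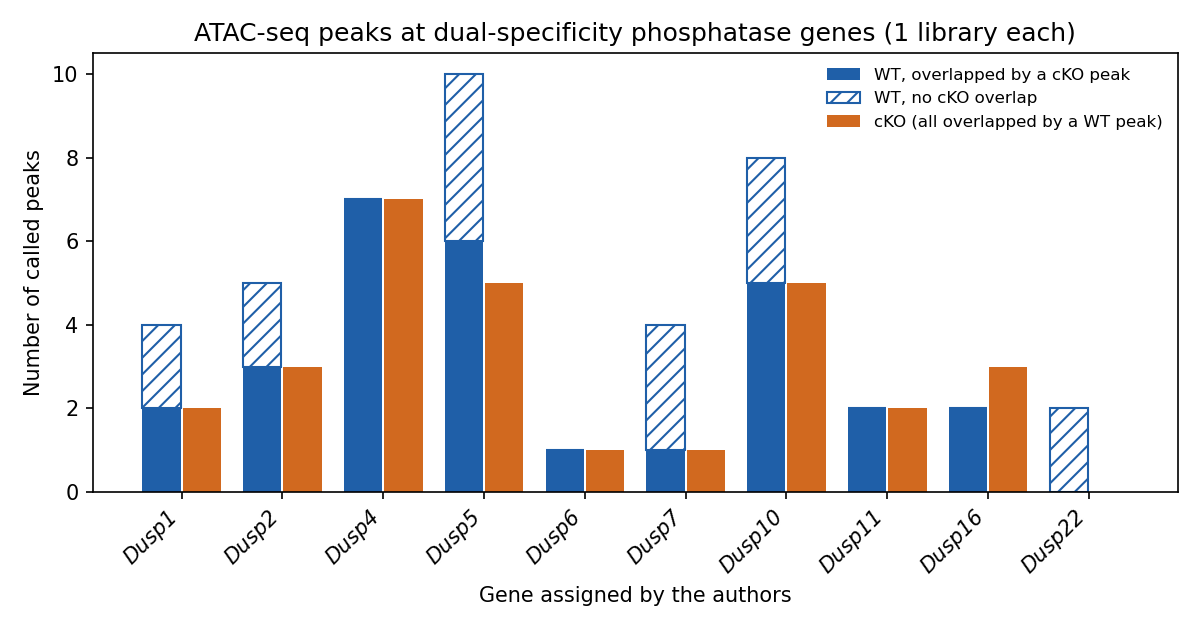
Number of called peaks (vertical axis) assigned to each gene (horizontal axis) in the WT and cKO libraries, with WT bars split into shared (solid) and unshared (hatched) peaks. Dusp4 has 7 peaks in each library, Dusp5 has 10 in WT and 5 in cKO, and Dusp22 has 2 in WT and none in cKO.

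The genes differed in how many WT peaks they shared, on counts of only 1 to 10 peaks each. Whether a peak was shared followed its score, as described below, so these counts alone show no difference between genes. Dusp4 (7 of 7 WT peaks), Dusp11 and Dusp16 (2 of 2 each) and Dusp6 (1 of 1) shared every WT peak. Dusp5 shared 6 of 10, Dusp10 5 of 8, Dusp2 3 of 5, Dusp1 2 of 4 and Dusp7 1 of 4. Dusp22 shared 0 of 2. Some of the 10 genes had many peaks. Of the members 4 (Dusp2, Dusp4, Dusp5 and Dusp10) had at least 5 WT peaks. So had 5.14% of the 19215 genes with any WT peak. Among 18 other dual-specificity phosphatase genes the highest count was 3, at Ssh1. The members and lists were chosen with earlier results of these data known, so these comparisons of peak number may reflect that choice. Fewer of the members' WT peaks lay at promoters, defined by the authors as within 3 kb of a start site, than in the whole list (12 of 45, or 26.7%, against 44.5%), and 20 of 45 (44.4%) were distal intergenic against 20.6%.

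Promoter peaks of the 10 genes were nearly all shared. Of 12 WT promoter peaks 11 had a cKO partner (91.7%, 64.6 to 98.5), against 74.3% of all WT promoter peaks. The single exception was the promoter of Dusp22. Outside promoters 18 of 33 were shared (54.5%, 38 to 70.2), against 41.4% of all such peaks. Both shares over all peaks lie inside the members' intervals. At 18 other dual-specificity phosphatase genes 8 of 14 WT promoter peaks were shared. The groups were not matched for score, so these counts show no difference between them.

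Whether a member peak was shared followed its place in the WT list. With the WT list cut by score into 3 equal bins, all 14 member peaks of the high bin were shared, 11 of 16 in the middle bin and 4 of 15 in the low bin. The same bins of the whole WT list were shared at 96.8%, 56.2% and 15.2%, each inside the members' interval (78.5 to 100, 44.4 to 85.8, and 10.9 to 52). Unshared member peaks were also narrower, at a median of 608 bp, than shared ones, whose median was 1208 bp. The whole WT list showed the same gap, with medians of 662 and 1213 bp. Of the 5 member peaks narrower than 465 bp, the narrowest peak of the cKO list, 1 was shared, and of all 3007 WT peaks this narrow 5.42% were.

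**Figure D2:**
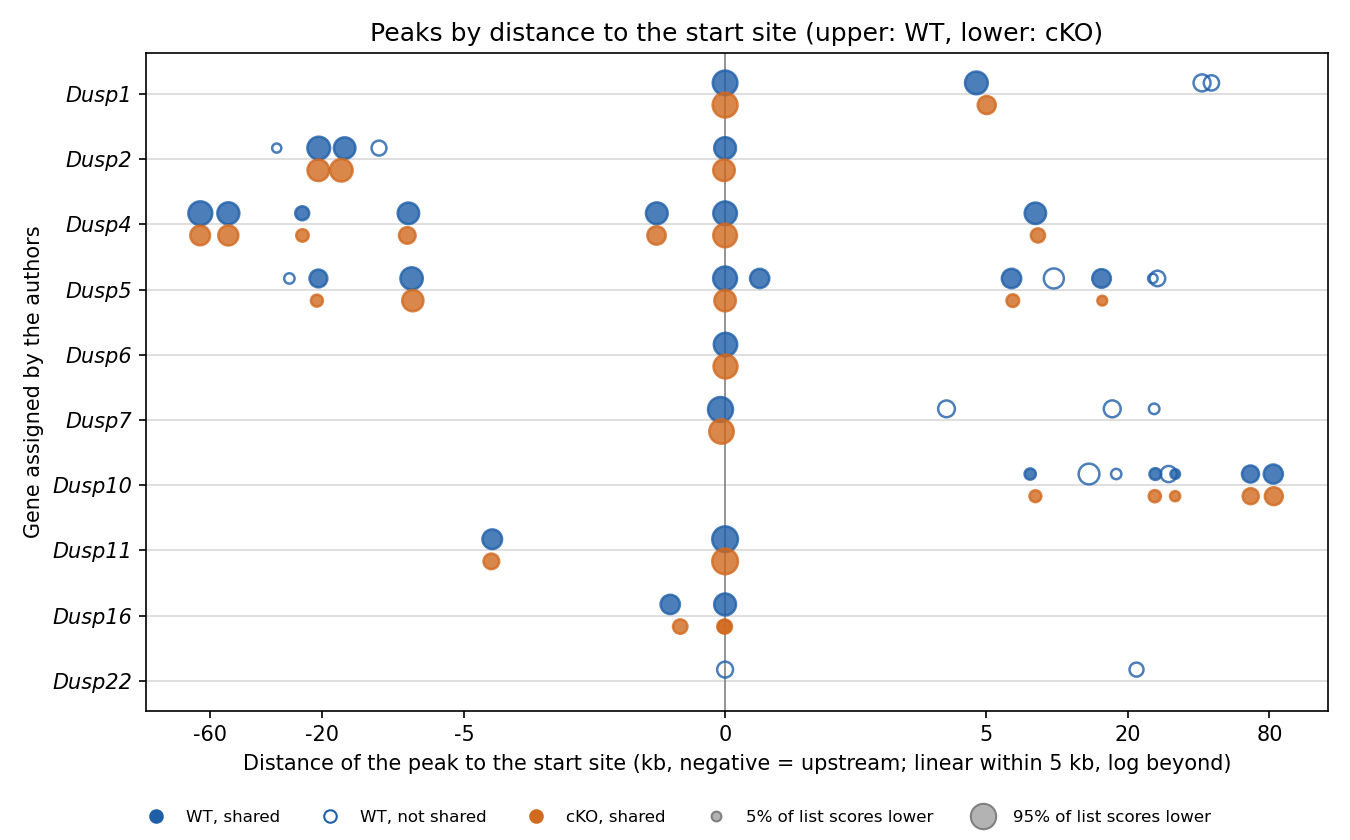
Distance of each peak to the start site in kb (horizontal axis, linear within 5 kb and logarithmic beyond), with a row for each gene, WT above cKO, filled circles for shared and open circles for unshared peaks, and larger circles for peaks that outscore more of their own list. Distances are the authors', so both Dusp16 peaks of the cKO library near 0 fall on each other, and open circles lie mostly away from the start sites.

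Among the inducible nuclear enzymes, Dusp4 was the gene with most shared peaks. Its 7 WT peaks spread from 66071 bp upstream to 8086 bp downstream of the start site, and each had its own cKO partner. The most distant, chr8:34739943-34741226, outscored 83.2% of the WT list, about as much as the promoter peak chr8:34806598-34809172 (81.2%). In the cKO list the promoter peak outscored 81.3% and the distant peak 53.3%. The other upstream peaks at 50210, 24356 and 8606 bp outscored 68.7%, 21.3% and 65% of the WT list, and their partners 55.4%, 14.9% and 34.5% of the cKO list. A second promoter peak 1307 bp upstream outscored 67.1% of WT peaks, with a partner at 45.2%. A peak over exon 2 of 4, 8086 bp downstream, outscored 64.4% of the WT list, and its cKO partner 22.2% of the cKO list. Of the 377 genes with at least 7 WT peaks, 8 shared every one of them (2.12%). This comparison was chosen after the values of Dusp4 were seen. The 377 genes were not matched to Dusp4 for score, which sharing followed as described above.

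Dusp5, whose product is a nuclear phosphatase of ERK, had the most WT peaks, over a stretch from 27618 bp upstream to 26732 bp downstream. At the promoter, WT peaks at chr19:53528419-53529202 and chr19:53529771-53530631 were both overlapped by 1 cKO peak, chr19:53528540-53530742, which was 2203 bp wide. The WT peaks outscored 82.8% and 50.2% of their list and the cKO peak 64.8% of its own. A cKO peak with 2 or more WT partners occurred in 0.818% of the cKO list, a share over peaks of any width, with a median of 974 bp. Upstream, the peak 8342 bp from the start site outscored 71.2% of the WT list and its partner 63.6% of the cKO list. Shared peaks also lay 20780 bp upstream, 6401 bp downstream in intron 2 of 3, and 15458 bp downstream. Their partners ranked low, outscoring 12.9%, 15.6% and 5.19% of the cKO list. The strongest unshared Dusp5 peak lay in intron 3 of 3 at chr19:53538796-53539733, outscored 55.1% of the WT list and was 1789 bp from the nearest cKO peak. The other 3 unshared peaks lay more than 20 kb from the start site, and outscored 7.02%, 4.12% and 28.7% of the WT list.

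At Dusp2, known as a phosphatase of activated T cells, peaks far upstream of the gene ranked close to the promoter in both lists. The WT peak 20710 bp upstream (chr2:127314104-127315449) outscored 74.4% of its list, the one 16067 bp upstream (chr2:127317980-127320092) 65.3% and the 2854 bp wide promoter peak (chr2:127333371-127336224) 67.3%. Their cKO partners outscored 66%, 73% and 65.8% of the cKO list in the same order. In each list at least 1 of the distal peaks outscored the promoter. The unshared WT peaks, 31264 and 11480 bp upstream, were 504 and 466 bp wide and outscored 2.94% and 25.7%.

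Dusp1, the prototype of the inducible family, had a promoter peak near the top of each list. It outscored 89.2% of the WT list (chr17:26507550-26509443) and 91.1% of the cKO list (chr17:26507630-26509451), and both peaks cover the CRE match shown above. A second shared peak lay past the end of the gene, 4810 bp downstream of the start site, outscoring 74.1% of the WT peaks and 43% of the cKO peaks. Both unshared peaks lay far downstream, 41361 and 45342 bp from the start site, were 375 and 615 bp wide, and outscored 36.7% and 27.6% of the WT list.

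The cytoplasmic ERK phosphatases had strong promoter peaks in both libraries. Dusp6 had 1 peak in each, over its start site, of 2930 bp in WT (chr10:99261253-99264182) and 2613 bp in cKO, which outscored 79.3% and 83.4% of their lists. Dusp7 had a promoter peak that ended 92 bp short of the authors' start site in WT (chr9:106367141-106368540) and 85 bp short of it in cKO, and it outscored 91.5% and 87.5%. Dusp7 had no other peak in the cKO list. Its unshared WT peaks lay 4238 bp downstream in intron 2 of 2 and 17163 and 25880 bp downstream between genes, and outscored 35.3%, 36.2% and 7.5% of the WT list. With its promoter as its only shared peak, Dusp7 had the lowest shared fraction of the genes that had cKO peaks.

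Among the phosphatases of JNK and p38, Dusp10 had 8 WT peaks and no assigned promoter peak in either list. Its start site nevertheless lay under a peak in both. That peak, chr1:184033463-184035144 in WT and chr1:184033492-184035132 in cKO, was credited by the authors to 1700056E22Rik, a divergent gene whose RefSeq start site lies 383 bp away. It outscored 90.8% of WT peaks and 87.2% of cKO peaks, and it covered all 250 bases of the Dusp10 sequence shown above. It is not counted among the 45 WT peaks.

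The peaks assigned to Dusp10 lay inside its intron 2 of 3 and up to 83112 bp downstream. The strongest was unshared. It lay 13673 bp downstream of the start site at chr1:184048054-184049572, was 1519 bp wide and outscored 59.8% of the WT list, and the nearest cKO peak was 5064 bp away. Weaker intron peaks beside it at 7686, 26180 and 31804 bp, which outscored 10.2%, 12.1% and 4.4% of the WT list, were shared. Of the 310 WT peaks outside promoters that were at least as wide and within 5 percentage points of its place in the list, 93.2% were shared. Of the 3467 WT peaks of any class with at least its score and width, 99.6% were shared. That set takes in promoter peaks and peaks of any higher score, so the 310 peaks are the closer match. These comparisons were chosen after the peak was seen, and with 1 library per genotype the missing call has no replicate check. At 26180 bp the WT peak was 394 bp wide and its cKO partner 1422 bp wide. Distal peaks 66471 and 83112 bp downstream were shared and outscored 37.2% and 49.2% of the WT list. The remaining unshared peaks, at 17846 and 29836 bp, outscored 6.72% and 32.2%.

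Dusp16 was the gene with more cKO than WT peaks, 3 against 2, all of the promoter class. The WT peak over the start site, chr6:134791225-134792748, was 1524 bp wide and was overlapped by 2 separate cKO peaks of 504 and 496 bp, along 504 and 412 of their bases. A WT peak with 2 or more cKO partners occurred in 0.189% of the WT list. That share is over peaks of any width, with a median of 977 bp, and was not matched to this wider peak. The WT peak outscored 67.9% of its list, and its partners 19.6% and 20.8% of theirs. The second WT peak, 1050 bp upstream of the start site of another transcript, outscored 50.6% and its partner 23.3%. The 3 cKO peaks of Dusp16 therefore all fell on regions called in WT.

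The atypical members stood at opposite ends. Dusp11 had the strongest peak of all 10 genes in both lists, at its promoter, which outscored 97.9% of the WT list (chr6:85961049-85962170) and 97.6% of the cKO list (chr6:85961130-85962039). Its other peak, 4457 bp upstream in an intron of the predicted gene Gm19265, was shared and outscored 52.6% and 29.4%. Dusp22 had no cKO peak. Its WT peaks lay over the start site (chr13:30659542-30660719, 1178 bp wide) and 21772 bp downstream in intron 3 of 7 (chr13:30681873-30682587), and outscored 30.8% and 21.5% of the WT list. The nearest cKO peak was 65013 bp from the intron peak and belonged to Irf4. Among all WT promoter peaks of the low score bin, where that of Dusp22 lay, 19.2% were shared. Among genes with 2 or more WT peaks 15.8% shared none.

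**Figure D3:**
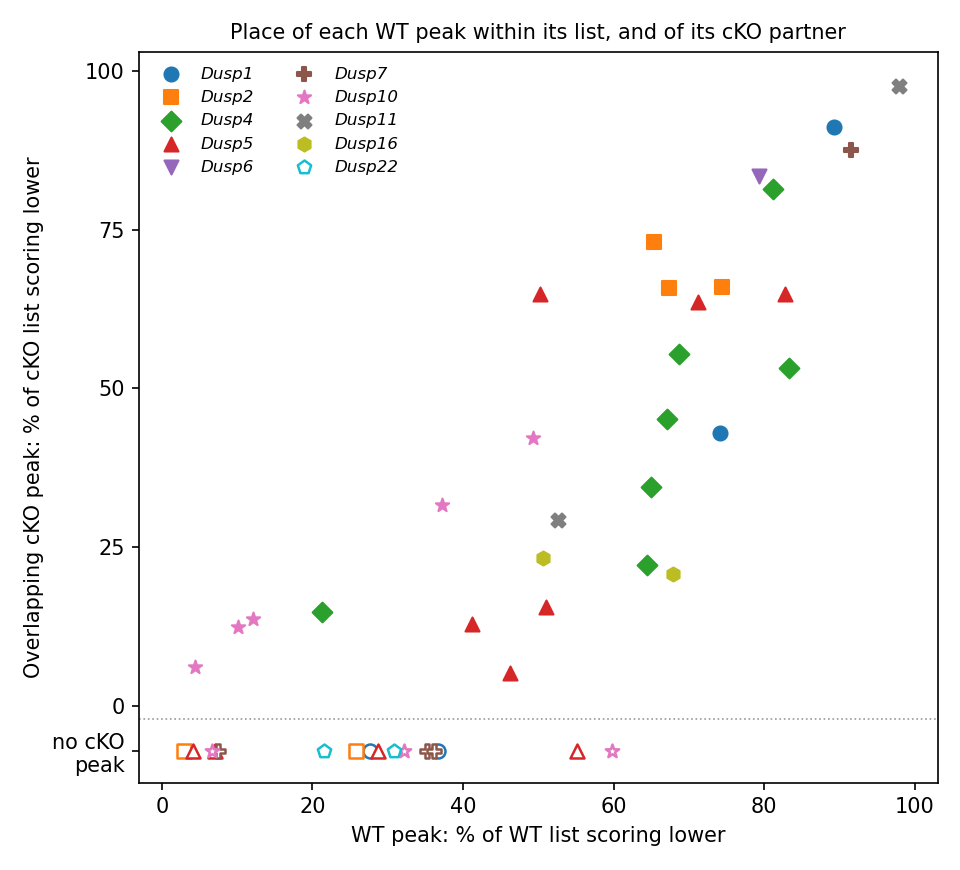
Each WT peak of the 10 genes by the percentage of the WT list that it outscores (horizontal axis) and its overlapping cKO peak by the percentage of the cKO list (vertical axis, the higher one where there are 2 partners), with unshared WT peaks as open symbols below the dotted line. Dusp11, Dusp1 and Dusp7 promoters stand at the upper right, and the open symbols reach no further than 59.8%, the intron peak of Dusp10.

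Across the 29 shared WT peaks the order of scores was similar in both lists, with Spearman's rho of 0.838 between their places. This is a description over peaks that share 2 libraries, and since the lists differ in length a different place in them shows no change. A cKO peak of Dusp5 enters for both of the WT peaks it overlaps, and for the Dusp16 WT peak with 2 cKO partners the higher one was used. Every shared peak carried the same gene symbol in both lists.

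The other genes of the pathway gave these counts. Over the whole WT list 56.1% of peaks were shared, 74.3% at promoters and 41.4% elsewhere. Of all genes with a WT peak 71.8% also had a cKO peak. Of 18 other dual-specificity phosphatase genes (further Dusp genes, Styx and the slingshot phosphatases), 14 had WT peaks and 9 had cKO peaks, and 8 of their 18 WT peaks were shared (44.4%). Dusp3, Dusp8, Dusp9, Dusp15, Dusp26 and Ssh3 had peaks in WT alone. Dusp13 had a peak assigned in cKO alone, which overlapped a WT peak assigned to another gene. Dusp18, Dusp21 and Dusp27 had none. The 4 WT peaks of this list outside promoters were all unshared, and 8 of its 14 promoter peaks were shared.

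Of the MAP kinases themselves 10 of 11 genes had WT peaks and 8 had cKO peaks. Of their 18 WT peaks 10 were shared (55.6%), against 56.1% of all WT peaks. Mapk3, which encodes ERK1, and Mapk13, a p38 kinase, had peaks in WT alone, and Mapk10 had none. Of the MAP2 kinases 6 of 7 genes had peaks in both libraries, with 8 of 12 shared (66.7%), and Map2k7 had none. Other brakes of Ras and ERK signalling, the Sprouty and Spred genes and the Ras GTPase activators, shared 22 of 29 WT peaks (75.9%), among them 6 of 8 at Spred2 and 5 of 6 at Rasa3. Spred3 had a peak in WT alone and Spry1 had none. Target genes of ERK shared 12 of 18 (66.7%), with 3 of 3 at both Fos and Egr1 and 1 of 4 at Etv5. Ier3 had a peak in WT alone and Phlda1 had none. In all 5 lists each cKO peak overlapped a WT peak, as at the 10 phosphatase genes. Of all cKO peaks 97.6% did.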

How the data were processed

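ATAC-seq peak lists of 1 WT and 1 cKO Treg library, each from 50000 sorted cells, were analysed, with groups taken from the genotype labels. Per the submitters' processing notes the authors used Trimmomatic, FastQC, BWA and MACS2 with mm10. For versions, settings, read filters, any Tn5 shift and how genes were assigned, the sources used here give nothing. The deposited lists hold peaks called per library, with a score per peak, an annotation class, 1 gene and the distance to its start site in bp. Read totals were not used here, so depth is unknown, and a missing peak can be one below the caller's threshold.

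Peaks were matched by symbol, ranked by score within each list, and overlapped with Python 3.11.15 and pandas 2.3.3. The overlap code differed from bedtools 2.31.1 at 0 of 34440 peaks and from known partners at 0 of 11480 simulated-data peaks. Intervals are Wilson 95% intervals from scipy 1.17.1. With 1 library per group no test between genotypes was made. Promoter sequences are RefSeq's. All 10 members are named, and of the other lists only counts, genes in 1 list or in none, and a few examples chosen after their values were seen. The members and lists were chosen with earlier results of these data known. Alternatives changed the overlap, score, width, list length, members and gene assignment.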

Additional observations from a re-analysis of the deposited data

How the results depend on the processing

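No paired analysis was possible because there is a single library of each genotype, and no replicate could be left out. With the WT list reduced to its strongest 19680 peaks, 92% of the members' WT peaks were shared, 100% at promoters and 85.7% elsewhere (83%, 90.9% and 72% of all such WT peaks), and 79.3% of their cKO peaks were shared (83% of all). Without Dusp11 and Dusp22 the promoter share was 100%. The other 40 of 45 recomputed values stayed within the interval, or within 1.5 times the count, of the reported one. Among them were the members with a cKO peak, which numbered 7 to 9, and 7 above the median score of each list. In that setting the members' WT share was 56.5%, against 57% of all WT peaks. It was 72.7% at promoters and 41.7% elsewhere, against 69.9% and 35.6%. Assigning peaks to the nearest RefSeq start site within 50 kb left 30 WT and 20 cKO peaks. All 5 WT peaks of Dusp2 then went to Gm46762, and the WT share was 66.7%. WT peaks fell from 4 to 1 at Dusp1, 7 to 5 at Dusp4 and 10 to 8 at Dusp5. They fell from 4 to 3 at Dusp7, 8 to 7 at Dusp10 and 2 to 1 at Dusp16. Dusp4 lost its peaks 66071 and 50210 bp upstream, and Dusp1 its shared peak 4810 bp downstream. Counting the peak over the Dusp10 start site, an alternative chosen after the data were seen, gave 30 of 46. Depth is unknown, so a missing cKO peak may be one that fell below the caller's threshold.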

Other observations

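Several open regions in or within 10 kb of the 10 genes were credited by the authors to neighbouring or predicted genes and so fell outside the counts. Inside the long Dusp16 gene, the peak at chr6:134751712-134753003, at the promoter of the predicted gene Gm36328, was shared, whereas WT peaks at chr6:134743368-134744116 (Gm36328) and chr6:134715748-134716481 (Gm44017, in a 3' UTR) had no cKO partner. A WT peak at the end of Dusp2, chr2:127338259-127339094, was credited to Astl and was unshared. Upstream of Dusp10, a further region credited to 1700056E22Rik was called in both libraries, at chr1:184024281-184025401 in WT. Downstream of Dusp11 a shared promoter peak of Gm7542 lay at chr6:85936934-85937798, and past the end of Dusp6 a peak of Gm48089 at chr10:99268501-99269249 was called in WT alone.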
